A study of Mus musculus with 6 samples.

Results

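Gap43, Sprr1a, Sox11, Basp1, Gadd45a, Stmn2, Klf6, Klf7 and Ecel1 are axon regeneration-associated genes, and their messenger RNA was measured in the injured sciatic nerve of male and female mice. The 9 genes were chosen by symbol for this known role and not by their values here, out of 52999 gene symbols in the files. All libraries came from C57BL/6 mice (C57BL6/J, 6 to 8 weeks old), in which the left sciatic nerve had been cut at mid-thigh (axotomy) and the proximal stump, the end still joined to the dorsal root ganglia, was taken 24 h later. There were 3 libraries from axotomized males and 3 from axotomized females, each a pool of nerves from 2 mice, and the study asked which transcripts differ between the sexes after this injury. Sham-operated nerves were not analysed here, and each value is a level after axotomy or a difference between the sexes, not a response to injury.

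After a peripheral nerve is cut, the injured sensory and motor neurons switch on a growth program in their cell bodies, in the dorsal root ganglia and the spinal cord. Transcription factors of this program, among them Sox11, Klf6 and Klf7, act upstream of proteins that serve the growth cone, such as Gap43, Basp1 and Stmn2. The nerve stump holds the axons but not those cell bodies, and most of its RNA comes from Schwann cells, fibroblasts, blood vessel cells and immune cells, several of which also express some of these genes.

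Depth was 51936195 to 69848769 estimated counts per male library and 49158283 to 64802091 per female library. Of the gene symbols, 30821 had a count, and the 18396 left by the low-count filter were tested with the quasi-likelihood F test of edgeR, with p-values adjusted by Benjamini and Hochberg over all of them and a threshold of an adjusted p under 0.1. Counts of Ddx3y, a Y-linked gene, were 3743, 2268 and 2785 in males 1, 2 and 3, against 0, 0 and 139 in females 1, 2 and 3, and Eif2s3y, also Y-linked, had 147 counts in female 3 and 0 in the other females. The Y-linked counts of female 3 amounted to 4.42% (Ddx3y) and 4.12% (Eif2s3y) of the male mean after scaling, and calls that changed without this library are given both ways for the 9 genes, the stathmins and the 6 genes named from a longer list. Kdm5d and Uty, also Y-linked, reached 7.46% and 11.9% in female 3. They also had counts in female 1 (43 and 18) and female 2 (51 and 37). Xist, at 26310 to 40851 counts in females, had 193 counts in male 1, against 6 and 16 in males 2 and 3. Sums of marker genes of cell types, among them the nerve's own Schwann cells, also differed between the sexes or between libraries. The summed TPM (transcript abundance corrected for length and scaled to a common total) of 10 genes of myelinating Schwann cells was 43427 to 52584 in males and 19552 to 25621 in females, and that of 14 genes of central neurons was 32.4 to 48.4 in males and 10.8 to 16.6 in females. Skeletal muscle genes (18) summed to 58.9, 49.9 and 774 TPM in males 1, 2 and 3, against 441, 655 and 65.0 TPM in females 1, 2 and 3, so that male 3 and females 1 and 2 held the most muscle RNA.

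The 9 genes spanned a wide range of levels, which were compared per transcript length as mean TPM over the 6 libraries. Klf6 stood highest at 78.4 ± 6.33 TPM (SD, n = 6), above Basp1 in all 6 libraries, and it made up 35.3% to 40.4% of the summed TPM of the 9 genes in males and 35.9% to 46.0% in females. Basp1 (36.4 ± 9.70), Gadd45a (35.4 ± 9.95) and Stmn2 (26.5 ± 6.30) followed, and the ranges of neighbours in this trio overlapped. Klf7 had 13.7 ± 3.23 TPM, below Stmn2 in all 6 libraries, and Gap43 had 6.28 ± 1.94 TPM, below Klf7 in all 6. A 21.8-fold step separated Gap43 from the lowest 3 genes, Ecel1 (0.288 ± 0.137), Sprr1a (0.160 ± 0.102) and Sox11 (0.112 ± 0.0924), whose neighbouring ranges overlapped. Sprr1a and Sox11, both known as marks of the injured sensory neuron, thus had the lowest mean levels of the 9 in the nerve itself.

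**Figure D1:**
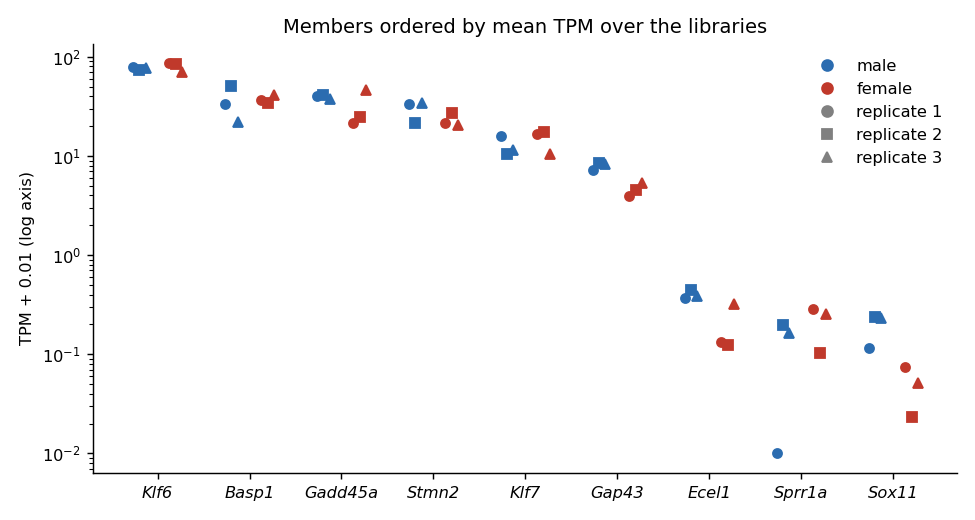
TPM of the 9 genes in each library on a log axis after adding 0.01, with genes ordered by their mean over the 6 libraries and males drawn left of females. Klf6 lies highest at a mean of 78.4 TPM, and Ecel1, Sprr1a and Sox11 lie below 1 TPM in every library.

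Between the sexes, 1 of the 8 genes that passed the filter differed at the threshold, which was Sox11, higher in males. Over all genes tested 975 passed, or 5.3%, with 3.84% higher in males (706 genes) and 1.46% higher in females (269 genes), and none of the 8 was called higher in females. This balance moved with the setting, to 1346 higher in males and 1263 higher in females without female 3, and to 1411 and 1029 by DESeq2. At an unadjusted p under 0.05 there were 3 of 8 (Sox11, Gap43 and Stmn2), against 20.7% of all genes. In 3 of 8 (Sox11, Gap43 and Ecel1) each male library lay above each female library, against 13.9% of all genes in that direction, and in 0 of 8 was each female library higher, against 11.6%, so that groups without overlap made up 25.5% of all genes in either direction. The log2 fold change (male minus female) was positive in 6 and negative in 2, with a median of 0.31 over the 8 and −0.026 over all genes tested. Sprr1a, the remaining gene, had too few counts to be tested.

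**Figure D2:**
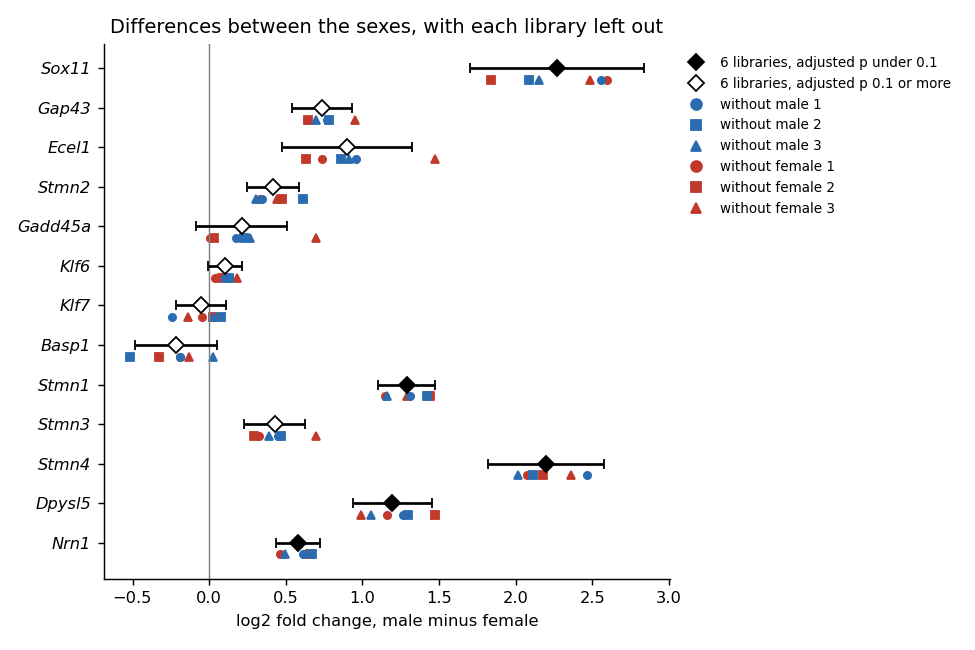
Log2 fold change, male minus female, of the 8 tested genes, 3 other stathmins, Dpysl5 and Nrn1, with its standard error (diamonds, filled at an adjusted p under 0.1 by edgeR), and the values with each library left out in turn (points). Of the 8, Sox11 at 2.27 is the filled diamond, and Klf7 and Basp1 have points on both sides of 0.

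Sox11, a SoxC transcription factor that promotes axon growth in injured sensory neurons, lies on chr12:27384263-27392573 of GRCm39 (minus strand) with a single transcript in the files. It had 33, 62 and 51 counts in males 1, 2 and 3, against 13, 3 and 14 counts in females 1, 2 and 3. Each male library lay above each female library. After scaling by library size and TMM (the trimmed mean of M values, which corrects for RNA composition), the level was 0.861 ± 0.326 CPM (counts scaled to a common library total) in males and 0.177 ± 0.108 CPM in females (SD, n = 3 each). The log2 fold change was 2.27 ± 0.57 (SE), or 4.82-fold, with an adjusted p of 0.0924 by the edgeR quasi-likelihood test. Its low counts limit the precision of the ratio, 4.74 from summed counts with an exact 95% interval of 3.18 to 7.27 for counting error alone. Without single libraries the adjusted p by edgeR passed the threshold only when male 1 or female 3 was left out, and reached 0.230, 0.163, 0.154 and 0.279 without female 1, female 2, male 2 and male 3. With a score of 17 muscle genes (mean log2 CPM) added to the model, the log2 fold change was 2.21 with an adjusted p of 0.193 by edgeR.

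Sox4 and Sox12, the other SoxC factors, did not pass the threshold. The level of Sox4 was 21.2 ± 0.524 CPM in males and 26.6 ± 5.50 CPM in females, with a log2 fold change of −0.33 and an edgeR adjusted p of 0.270, and that of Sox12 was 15.8 ± 0.592 CPM in males and 13.9 ± 0.844 CPM in females, with a log2 fold change of 0.18 and an edgeR adjusted p of 0.389. Both had higher counts than Sox11 in every library. The sexes did not overlap in either gene, with females higher for Sox4, as in 11.6% of all genes, and males higher for Sox12, as in 13.9%.

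The level of Sox11 moved with markers of central neurons across libraries. Pearson's r of its log2 CPM with the score (mean log2 CPM) of 12 tested central neuron genes was 0.897 over the 6 libraries, which also differ by sex. It was 0.888 with oligodendrocyte and astrocyte genes, 0.815 with sensory axon genes and 0.766 with myelinating Schwann cell genes. Of the 12 central neuron genes, 9 were called higher in males, against 3.84% of all genes, with a median log2 fold change of 2.09. Rbfox3, a marker of mature neurons, had 67, 63 and 69 counts in males and 16, 13 and 24 counts in females (chosen after its values were seen). The part of these genes in the difference of Sox11 was not tested, and because the combined score of 27 central neuron and glia genes had a correlation of 0.966 with sex, their effects cannot be told apart. In bulk tissue, fewer cells or axons of a type and less RNA in each also cannot be told apart.

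To show what lies at the start of the 2 genes with the fewest counts, the 250 bases before the RefSeq start of each are printed 5′ to 3′ on the gene's strand, from the RefSeq promoter table on GRCm38.p6, with matches to the searched motifs in capitals. The motifs, read on both strands, were AP-1 (TGANTCA), the cyclic AMP response element (TGACGTCA), the GC box (GGGCGG), the CCAAT box (CCAAT) and the TATA box (TATAAA). Windows were found for 7 of the 9 genes, and Gap43 and Stmn2 had none.
Sprr1a, chr3:92485882-92486131, minus strand: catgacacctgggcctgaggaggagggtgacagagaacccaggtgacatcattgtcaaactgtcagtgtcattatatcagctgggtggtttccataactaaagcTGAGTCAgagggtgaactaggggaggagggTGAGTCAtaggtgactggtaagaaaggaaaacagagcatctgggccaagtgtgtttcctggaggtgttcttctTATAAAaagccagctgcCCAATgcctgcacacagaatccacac
Sox11, chr12:27342719-27342968, minus strand: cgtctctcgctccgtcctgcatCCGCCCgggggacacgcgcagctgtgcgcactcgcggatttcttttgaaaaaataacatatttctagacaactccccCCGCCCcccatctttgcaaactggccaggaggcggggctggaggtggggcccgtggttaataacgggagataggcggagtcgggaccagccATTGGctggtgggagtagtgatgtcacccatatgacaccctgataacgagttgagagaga

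The Sprr1a window held 2 AP-1 matches, a TATA box and a CCAAT box, and the AP-1 letters occurred in none of the windows of the other 6 matched genes. Among 32851 RefSeq windows, 6.75% held an AP-1 match and 0.338% held 2 or more, 12.4% held a TATA box and 33.8% held a CCAAT box. The Sox11 window held 2 GC boxes and a CCAAT box, and 32.7% of all windows held a GC box, 16.7% 2 or more. The response element was in none of the 7 windows and in 1.55% of all. These matches describe letters only and say nothing of a factor's binding.

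Sprr1a, a small proline-rich protein of the cornified skin envelope that injured sensory neurons also make, lies on chr3:92390424-92393208 (GRCm39, minus strand). It had 0, 4 and 3 counts in males and 6, 2 and 6 counts in females. The 0 of male 1 allows up to 0.0445 CPM at a floor of 3 counts. From the sums of 7 male and 14 female counts the ratio of male to female was 0.487 with an exact 95% interval of 0.166 to 1.29 (counting error alone), so no difference was detectable at this depth. Of 15 other Sprr genes 2 had a count in some library. Of 14 keratinocyte markers, which would mark skin in the sample, 2 were at 0 in all libraries, and their summed TPM was 13.4 to 19.0 in males and 12.0 to 13.5 in females.

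Gap43, a membrane-bound growth cone protein and the classic mark of a growing axon, lies on chr16:42068805-42161086 (GRCm39, minus strand). It had 7.23, 7.41 and 7.99 CPM in males 1, 2 and 3, against 3.89, 3.92 and 5.74 CPM in females 1, 2 and 3. The 3 males lay close together and above each female, with female 3 nearest to them. The mean level was 7.54 ± 0.401 CPM in males and 4.52 ± 1.06 CPM in females, 1.67-fold (log2 fold change 0.74 ± 0.20, SE), with an adjusted p of 0.102 by edgeR, just short of the threshold. The call depended on the processing, since the adjusted p was 0.0135 by DESeq2, 0.0975 by limma-voom and 0.0435 by edgeR without female 3, where the log2 fold change was 0.95. It was 0.299 without female 1, 0.220 without female 2, 0.307 without male 3 and 0.260 with the muscle score in the model, all by edgeR.

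Gap43 moved with several marker scores over the 6 libraries. Pearson's r was 0.968 with 14 sensory axon genes, 0.933 with myelinating Schwann cell genes, 0.921 with oligodendrocyte and astrocyte genes, 0.907 with central neuron genes and −0.846 with macrophage genes. The summed TPM of 18 sensory axon genes was 824 to 923 in males and 511 to 568 in females, and 4 of the 14 tested were called higher in males, against 3.84% of all genes. Their log2 fold change was positive in 11 and negative in 3, with a median of 0.32, and the sexes overlapped in 8 of the 14. Nefl, the light neurofilament chain of large axons, had 22.9 ± 5.96 CPM in males and 8.75 ± 2.94 CPM in females, whereas Isl1, a transcription factor of the neurons' nuclei, had at most 15 counts in any library (both chosen after their values were seen). Of 5 motor axon markers, Mnx1 was at 0 in all libraries, and the summed TPM was 0.174 to 0.449 in males and 0.0545 to 0.103 in females. With the combined score of central neuron and glia genes in the model, the log2 fold change of Gap43 was 0.11 ± 0.74 (SE, edgeR). The scores of sensory axon and myelinating Schwann cell genes had correlations of 0.911 and 0.960 with sex. The part of axon content or of the other cell types in the difference of Gap43 was not tested, and their effects and that of sex cannot be told apart.

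**Figure D3:**
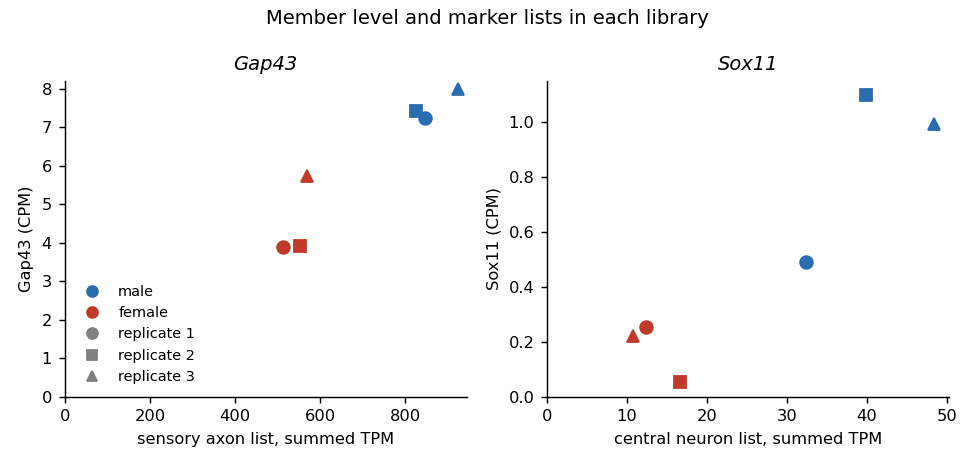
Gap43 CPM against the summed TPM of sensory axon markers, and Sox11 CPM against the summed TPM of central neuron markers, in each of the 6 libraries. The 3 males lie at higher marker sums than the 3 females in both panels (824 to 923 against 511 to 568 TPM, and 32.4 to 48.4 against 10.8 to 16.6 TPM).

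Basp1, a relative of Gap43 in function that also binds the inner membrane of growth cones, lies on chr15:25363350-25414981 (GRCm39, minus strand). It had 29.7, 43.7 and 19.6 CPM in males, against 37.5, 30.6 and 40.1 CPM in females. The males held both the highest library and the lowest, which was male 3. The log2 fold change was −0.22 ± 0.27 (SE), with an adjusted p of 0.679 by edgeR, and it was 0.027 without male 3. Marcks, Marcksl1 and Nrgn, listed beside Gap43 and Basp1 as related membrane-binding proteins, did not pass the threshold either (3 of 3, adjusted p 0.520 to 0.998 by edgeR).

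Stmn2 (SCG10), which promotes microtubule turnover in growing neurites, lies on chr3:8574151-8626667 (GRCm39, plus strand). It had 43.6, 30.2 and 45.5 CPM in males, against 26.3, 32.4 and 30.9 CPM in females. Males 1 and 3 lay above all females and male 2 lay among them. The level was 39.8 ± 8.33 CPM in males and 29.9 ± 3.17 CPM in females (log2 fold change 0.41 ± 0.17, SE), with an adjusted p of 0.224 by edgeR, and 0.0801 by edgeR without male 2.

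Of its 3 relatives, 2 passed the threshold, against 5.3% of all genes. Stmn1, the widely expressed stathmin of dividing cells and early neurons, had 370, 327 and 448 CPM in males, against 124, 188 and 156 CPM in females. Each male library lay above each female library, as in 13.9% of all genes. The level of Stmn1 was 2.44-fold higher in males (log2 fold change 1.29 ± 0.19, SE, adjusted p = 0.0357 by edgeR). Stmn4, a neuronal stathmin, had 0.801, 1.56 and 1.68 CPM in males, against 0.234, 0.284 and 0.350 CPM in females, 4.59-fold higher in males (log2 fold change 2.20 ± 0.38, SE, adjusted p = 0.0443 by edgeR). Stmn3 had 18.4 ± 0.798 CPM in males and 13.7 ± 4.01 CPM in females (log2 fold change 0.43, adjusted p = 0.272 by edgeR, and 0.0460 by edgeR without female 3). Both calls were lost by edgeR without female 1 (adjusted p 0.145 for Stmn1 and 0.179 for Stmn4) and without male 3 (0.143 and 0.170), and that of Stmn4 also without female 2 (0.113). Stmn1 thus had the highest level of the stathmins in every library, at 553 ± 90.6 TPM in males and 225 ± 55.7 TPM in females, against 29.9 ± 7.31 TPM in males and 23.1 ± 3.41 TPM in females for Stmn2.

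**Figure D4:**
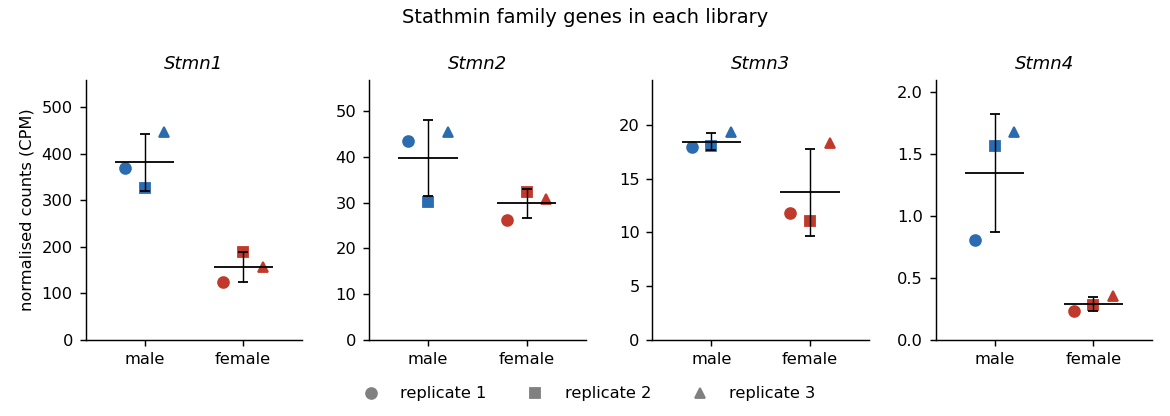
CPM of Stmn1, Stmn2, Stmn3 and Stmn4 in each library, males left of females, with the mean and SD of 3 libraries. Stmn1 and Stmn4 do not overlap between the sexes, whereas male 2 lies among the females for Stmn2.

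Klf6 and Klf7, zinc finger transcription factors known to promote axon growth, lie on chr13:5911481-5920393 (plus strand) and chr1:64068606-64161508 (minus strand) of GRCm39. Klf6 had 206, 207 and 204 CPM in males, against 175, 188 and 212 CPM in females. The males agree within a few CPM, while female 3 was the highest library of all. The log2 fold change was 0.10 ± 0.11 (SE), with an adjusted p of 0.633 by edgeR, and it was −0.031 with an offset for transcript length. Klf7 had 81.3, 56.5 and 58.5 CPM in males, against 68.7, 75.5 and 59.6 CPM in females (log2 fold change −0.054 ± 0.16, SE, adjusted p = 0.877 by edgeR). The sexes overlapped in both genes.

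Of 15 other Klf genes 12 were tested and 0 passed the threshold by edgeR, with 4 at an unadjusted p under 0.05, against 20.7% of all genes, and the smallest adjusted p at 0.118. That gene was Klf15, a factor known from glucocorticoid and metabolic responses, with 36.4 ± 1.63 CPM in males and 27.6 ± 3.16 CPM in females. The sexes did not overlap in 3 of the 12 with males higher (Klf11, Klf15 and Klf16), against 13.9% of all genes, and in 2 with females higher (Klf3 and Klf8), against 11.6%.

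Gadd45a, a stress-response gene that is switched on in injured sensory neurons, lies on chr6:67012070-67014441 (GRCm39, minus strand). It had 26.4, 25.6 and 23.4 CPM in males, against 15.0, 16.0 and 33.9 CPM in females. Females 1 and 2 lay below every male and female 3 above every male. The log2 fold change was 0.21 ± 0.30 (SE), with an adjusted p of 0.722 by edgeR, and without female 3 it was 0.70 with an adjusted p of 0.0443. Markers of fat, muscle and macrophages also set females 1 and 2 apart from female 3. The summed TPM of 10 adipocyte genes was 1406 and 851 in females 1 and 2 and 203 in female 3, and 166 to 621 in males. That of 18 muscle genes was 441 and 655 against 65.0, and 49.9 to 774 in males. For 11 macrophage genes it was 3715 and 3046 against 2281, and 1892 to 3021 in males. With the muscle score in the model, the log2 fold change of Gadd45a was −0.12 by edgeR. The part of these tissues in the level of Gadd45a was not tested. Gadd45b, Gadd45g and Gadd45gip1 did not pass the threshold (3 of 3, adjusted p 0.596 to 0.985 by edgeR).

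Ecel1, a membrane metallopeptidase of neurons that nerve injury induces, lies on chr1:87075377-87084243 (GRCm39, minus strand). It had 45, 45 and 37 counts in males, against 15, 13 and 40 counts in females. After scaling, each male library lay above each female library, with female 3 nearest to the males. The level was 0.729 ± 0.0652 CPM in males and 0.387 ± 0.219 CPM in females, 1.87-fold (log2 fold change 0.90 ± 0.42, SE), with an adjusted p of 0.275 by edgeR, and without female 3 it was 1.47 on the log2 scale with an adjusted p of 0.0685. The ratio of summed counts was 1.82 with an exact 95% interval of 1.34 to 2.48 for counting error alone. Of its 4 tested relatives among the membrane metallopeptidases 0 passed by edgeR and 2 had an unadjusted p under 0.05, against 20.7% of all genes, namely Ece2 (log2 fold change 0.65, adjusted p = 0.155 by edgeR) and Mme (0.59, adjusted p = 0.193 by edgeR).

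**Figure D5:**
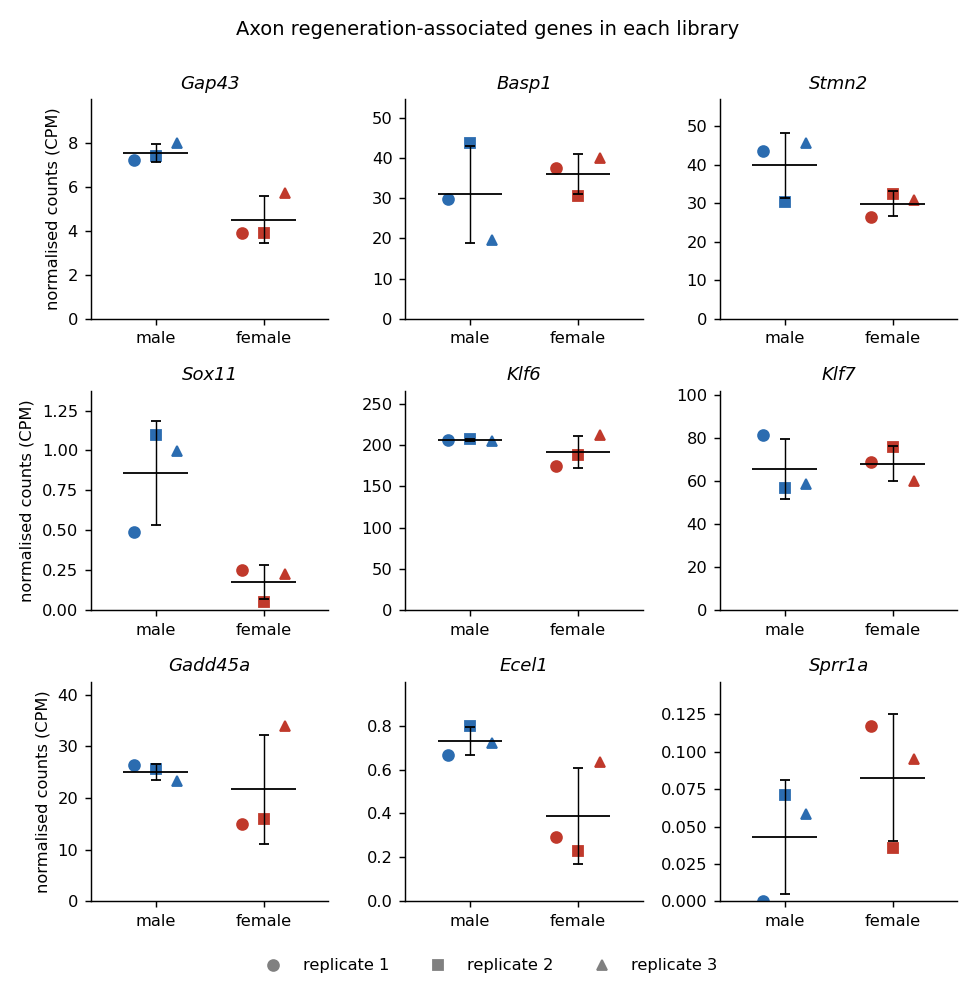
CPM of each of the 9 genes in each library, males left of females, with the mean and SD of 3 libraries per sex. Sox11, Gap43 and Ecel1 do not overlap between the sexes, and for Gadd45a and Ecel1 female 3 lies apart from females 1 and 2.

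Within the genes, 1 transcript carried most of the TPM where the level allowed a comparison. Its share was lowest for Gap43 (Gap43-201), at 88.4% in female 2 and 84.9% in male 2. Over the 6 transcripts compared with an exact permutation test (two-sided, smallest p possible 0.1 with 3 against 3), none had an adjusted p under 0.2. The main transcript of Gadd45a (Gadd45a-201) held 95.2 ± 0.304% of the gene's TPM in males and 93.5 ± 0.407% in females, with no overlap between the sexes (exact p = 0.1). That of Klf7 (Klf7-202) held 99.5 ± 0.282% in males and 96.2 ± 2.31% in females (exact p = 0.1), and the difference was 3.32 percentage points by TPM and 0.45 by counts. Isoforms were compared only in genes with a mean of 1 TPM or more, which left out Ecel1 (0.288 TPM). The few counts of Ecel1 were assigned to different transcripts in different libraries. Antisense long noncoding RNAs overlap Gap43, Basp1, Gadd45a, Klf7 and Ecel1, and the library kit keeps the strand. Another long noncoding RNA, Gm48956, overlaps Basp1 on the same strand, where the strand does not tell them apart.

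Across the 6 libraries the closest pairs among the genes were Gap43 with Ecel1 (Pearson's r = 0.954 of log2 CPM) and Gadd45a with Klf6 (r = 0.942), and Basp1 and Stmn2 ran opposite to each other (r = −0.819). These are descriptions over the same 6 libraries, which differ in sex and in their marker sums. Among 13480 protein-coding genes, those most like Gap43 were Pebp1 and Trim41 (r = 0.996 each), those most like Sox11 were Tkt (0.990) and Ttbk1 (0.989), and those most like Ecel1 were Tcim and Arl8a (0.994 each). For Basp1 they were Gpsm3 (0.995) and Trim27 (0.993), for Stmn2 Ptpn3 (0.996) and Pam (0.994), for Klf6 1700029I15Rik (0.996) and Unc79 (0.995), for Klf7 Zfp558 (0.991) and Harbi1 (0.988), and for Gadd45a Trmt10a (0.993) and Cadm4 (0.988). With so few libraries, between 27 and 266 genes exceeded r = 0.95 for a given gene.

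A longer list of 48 other genes of the regeneration program, among them Atf3, Jun, Stat3, Gal and Npy, was counted in the same way. Of 45 tested, 2 were called higher in males and 0 higher in females, against 5.3% of all genes, and 10 had an unadjusted p under 0.05, against 20.7%. The log2 fold change was positive in 13 and negative in 32, with a median of −0.14. Dpysl5, a collapsin response mediator protein of growing neurites, had 7.82, 7.85 and 10.3 CPM in males, against 3.59, 5.11 and 2.64 CPM in females (log2 fold change 1.20 ± 0.26, SE, 2.29-fold, adjusted p = 0.0689 by edgeR). Nrn1 (neuritin), which promotes neurite growth, had 38.5, 37.2 and 45.3 CPM in males, against 22.3, 29.9 and 28.7 CPM in females (0.58 ± 0.14, SE, adjusted p = 0.0882 by edgeR). In both genes each male library lay above each female library, as in 13.9% of all genes. By edgeR the call of Dpysl5 was lost without female 1 (adjusted p = 0.235), male 1 (0.109) or male 3 (0.241), and that of Nrn1 without any single library other than female 3 (0.102 to 0.287). With library size alone and with the length offset the 2 genes called were Dpysl5, higher in males, and Chl1, higher in females.

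The next 4 by p did not pass the threshold with all libraries by edgeR, and 3 of them did in some other setting. Dpysl2, another collapsin response mediator, had 152 ± 7.88 CPM in males and 80.2 ± 31 CPM in females (log2 fold change 0.92, adjusted p = 0.112 by edgeR). It passed without female 3 (1.23, adjusted p = 0.0439 by edgeR) and by DESeq2 (adjusted p = 0.00854). Males averaged 271 ± 16.5 CPM of Chl1, an adhesion molecule of growing axons, and females 357 ± 37.4 CPM (log2 fold change −0.40, adjusted p = 0.137 by edgeR). Chl1 passed, higher in females, with library size alone (adjusted p = 0.0936 by edgeR), with an offset for transcript length (−0.59, adjusted p = 0.0696 by edgeR) and by DESeq2 (adjusted p = 0.0456). For Nrcam, of the same family, males averaged 136 ± 6.75 CPM and females 176 ± 25.6 CPM (log2 fold change −0.38, adjusted p = 0.162 by edgeR), and the sign turned with an offset for transcript length (0.072). Adcyap1, the neuropeptide PACAP, averaged 0.513 ± 0.339 CPM in males, against 0.0595 ± 0.0867 CPM in females (log2 fold change 2.98, adjusted p = 0.146 by edgeR). It passed by DESeq2 (adjusted p = 0.0411) and without female 3 (adjusted p = 0.0524 by edgeR), where females 1 and 2 had 1 and 0 counts and the fitted value of 5.47 depends on the prior count.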

How the data were processed

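Polyadenylated RNA of 6 pools (2 mice each) was sequenced as stranded paired-end libraries. The submitters' processing notes name Trimmomatic 0.39, Salmon 1.5.2 and MultiQC 1.9. The authors deposited, per transcript, Salmon's estimated count, its TPM and its effective length, a value in bases. The estimated counts are not normalised, and Salmon divides a read shared by several transcripts among them. TPM, as deposited by the authors, sums to 1 common total per library.

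Estimated counts and TPM were summed per gene symbol and the counts rounded. In R 4.3.3, edgeR 4.0.16 was used with filterByExpr, TMM and the quasi-likelihood F test, with sex as the only term. The SE is the log2 fold change divided by the square root of F. CPM are TMM-scaled. DESeq2 1.42.0 and limma 3.58.1 served as alternatives. Alternatives also covered other normalizations, filters, a length offset, covariates, the replicate block, log2(TPM + 0.5) with limma and each library left out. Floors and count intervals cover counting error only. Within a sex no library was a copy of another (chi-square per degree of freedom 44.8 to 134.2), and pairs across the sexes were not compared in this way.

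The 9 genes were set by symbol and by no value measured here, though the genes and lists were chosen with earlier results of these data known. Named were the 9 genes, their relatives, the called genes and the next 4 by p of the longer list, and the 2 genes most correlated with each tested gene. Coordinates are those of GENCODE M39 (GRCm39). P-values measure the spread between pools.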

Additional observations from a re-analysis of the deposited data

How the results depend on the processing

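The number of genes called, 975, stayed within 1.5 times under DESeq2 size factors, library size alone, limma-voom, a CPM filter, a length offset, gene IDs and protein-coding genes alone. It was 279 at an adjusted p under 0.05, 2440 by DESeq2, 1614 with no filter, 562 with a skeletal muscle covariate, 0 with a central nervous tissue covariate and 378 by limma on log2(TPM + 0.5), and 1 to 2609 with single libraries left out, lowest without female 1 and highest without female 3. Of the 9 genes, 1 was called. The number was 0 at an adjusted p under 0.05, with library size alone, with either covariate and on log2(TPM + 0.5), 2 (Gap43 and Sox11) by DESeq2, with no filter and for protein-coding genes alone, and 0 to 4 with single libraries left out. With limma-voom the 1 gene called was Gap43, and Sox11 had an adjusted p of 0.105 by that test. Gap43 was also the 1 gene called with the CPM filter, which left 6 of the 9 to be tested and removed Sox11 and Ecel1. Of the longer list 2 were called, against 0 at 0.05, 7 by DESeq2, 4 with no filter, 1 with the muscle covariate, 0 with the nervous tissue covariate, 0 on log2(TPM + 0.5) and 0 to 5 with single libraries left out. With library size alone and with the length offset the number stayed at 2, with Chl1 (higher in females) in place of Nrn1.

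Libraries of the same replicate number did not deviate alike from their sex's mean (correlations −0.039, −0.304 and −0.296, against −0.142 to 0.395 for unlike numbers). The deviations cancel out within a sex, so these values depend on each other and cannot exclude a pairing. With the replicate number as a block 56 genes were called, 0 of the 9 and 0 of the longer list, and Stmn1 and Stmn4 were lost too (adjusted p 0.116 and 0.117 by edgeR). Direction turned for Klf6 (−0.031 with the length offset, −0.078 with the nervous tissue covariate, −0.069 on log2(TPM + 0.5)), Nrcam (0.072 with the length offset, 0.067 on log2(TPM + 0.5)) and Gadd45a (−0.12 with the muscle covariate, −0.31 with the nervous tissue covariate). With the nervous tissue covariate, whose correlation with sex is 0.966, it also turned for Sox11 (−0.25), Klf7 (1.22), Ecel1 (−0.23), Stmn3 (−0.19), Stmn4 (−0.62) and Adcyap1 (−1.70). Leaving out a library turned Klf7 (range −0.24 to 0.075, above 0 without female 2, male 2 or male 3) and Basp1 (range −0.52 to 0.027, above 0 without male 3). The cause was not tested.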
